A study of Mus musculus with 10 samples.

Results

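The Myc and Max network is the group of dimerising transcription factors built around Myc, its partner Max and the repressors that compete with Myc for Max. The 10 genes Myc, Mycn, Max, Mnt, Mxd1, Mxd3, Mxd4, Mxi1, Mga and Mlx were followed here in trisomic and diploid mouse embryonic stem (ES) cells. Members were found by name, as every noncontrol array probe whose gene name was one of these, which gave 12 of the 55681 probes on the array. Of the 10 genes, 9 were among the 28180 genes tested. Mxi1, a repressor that pairs with Max, had 1 probe, which was not well above background on any of the 10 arrays and was not tested.

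The study profiled 4 ES cell lines that each carry 3 copies of 1 autosome, and diploid cells with 2 copies. The lines were Ts6 (trisomic for chromosome 6, passages 9 and 18), Ts8 (chromosome 8, passages 10 and 13), Ts11 (chromosome 11, passages 8 and 11) and Ts15 (chromosome 15, passages 11 and 14), all of strain 129 S7/SvEvBrd, and the control was the diploid line AB1 (WT, passages 18 and 20). Each group had 2 samples of different passage, and each sample was run on 1 single-colour array, so n = 2 per group throughout. The p-values measure the spread between these samples. The labels name no separate clones within a trisomy and no parent of the lines, and most of the lines' samples had a lower passage number than WT, so trisomy cannot be told apart from line and, in part, from passage.

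All groups were grown on irradiated SNL76/7 feeder fibroblasts that were left to settle out before RNA was taken. Per array, between 71.4% and 80.2% of noncontrol spots gave a signal well above background. All 6 defining ES cell markers (Pou5f1, Sox2, Nanog, Esrrb, Zfp42 and Klf4) were above background on all 10 arrays. Of 10 feeder markers 8 were above background on all arrays and Lum on none, and of 9 markers of differentiating cells 8 were above background on all arrays and Mixl1 on none. In bulk RNA, fewer cells of a type and less RNA per cell cannot be told apart. WT, Ts6, Ts8 and Ts11 shared slide 1 and Ts15 had slide 2 to itself, so Ts15 and its slide cannot be told apart.

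Myc and its relative Mycn drive genes of growth, ribosome assembly and metabolism, and do so only as dimers with Max. Mnt and the Mxd proteins bind Max in place of Myc and recruit Sin3 corepressors to the same DNA sites, so the balance of these genes sets how much Max is paired with an activator or a repressor. Mga joins Max in a Polycomb complex, PRC1.6, that represses germ cell genes in ES cells. Mlx is the partner that Mnt, some Mxd proteins and the glucose-responsive Mondo factors use in place of Max. In mouse ES cells Myc and Mycn overlap in their roles in self-renewal, downstream of LIF and Wnt signalling.

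The dimers bind the E-box CACGTG, a palindrome that reads the same on both strands. Promoter sequences (RefSeq, GRCm38.p6, 250 bases before to 50 after the start site) were held for 9 of the 10 members. The E-box occurred in the promoters of 4 of these 9 genes (in 4 of their 11 promoters), whereas 7.15% of all 32851 promoters of that length held it. The windows are printed to show where the network's own motif lies in genes of the network, with the E-box in capitals and each read 5′ to 3′ on the strand of its gene. They come from the promoters at chr12:76962199-76962498 (Max, minus strand, E-box at -3 from the start site), chr11:74830674-74830973 (Mnt, plus strand, -123), chr5:34187661-34187960 (Mxd4, minus strand, -219) and chr11:101087040-101087339 (Mlx, plus strand, -40).
Max: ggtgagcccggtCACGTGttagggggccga
Mnt: ccccacccaagcCACGTGtgcgcgcgcggt
Mxd4: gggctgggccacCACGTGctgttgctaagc
Mlx: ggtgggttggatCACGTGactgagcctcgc
A match in these windows is a description of the sequence and not a bound site.

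Levels are log2 of the scanner's processed signal relative to the 75th percentile of the same array, and a change is the difference of 2 group means on that scale, with the SE of a limma fit over all 10 arrays and a Benjamini-Hochberg adjusted p over all 28180 genes (limma). A gene was called where the adjusted p was under 0.05. Against WT, 1 of the 9 tested members was called in Ts6 (9.03% of all genes were), 0 in Ts8 (3.53%), 1 in Ts11 (8.13%), 0 in Ts15 (7.44%) and 1 in the mean of the 4 lines (3.85%), and wherever 1 was called it was Mxd1. At an unadjusted p under 0.05 the limma counts were 2, 4, 2, 3 and 1 members. The moderated F test over the 5 groups called 4 of the 9 members (Myc, Mnt, Mxd1 and Mxd4), beside 28.6% of all genes.

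**Figure D1:**
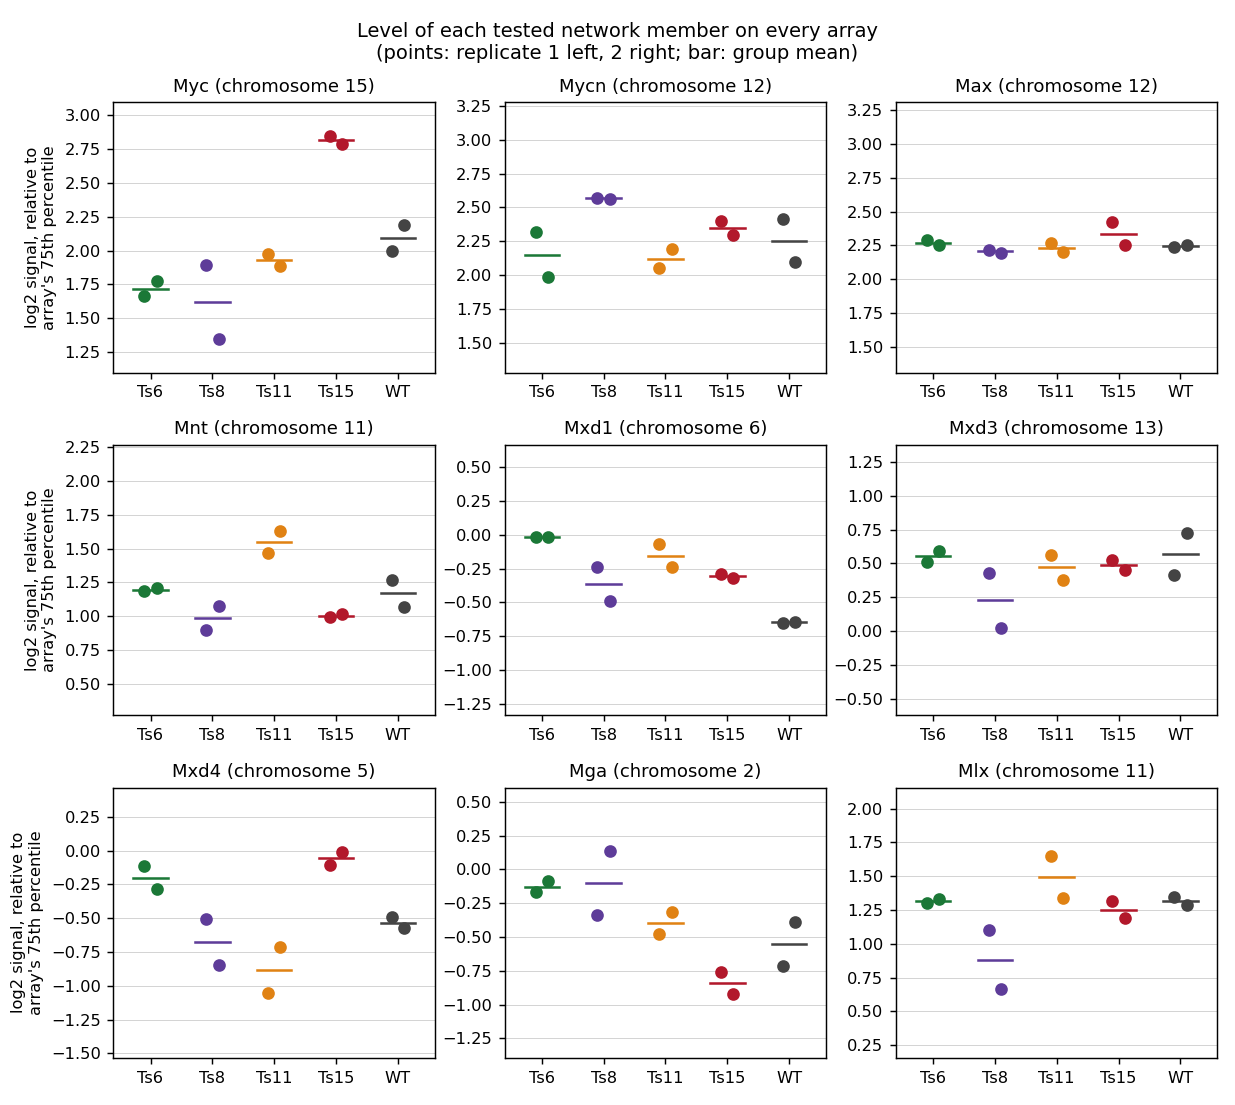
Level of the 9 tested members on every array, as log2 signal relative to the array's 75th percentile, with a point per array and a bar at the group mean; every panel spans the same log2 range. Both Ts15 arrays lie above all others for Myc, both Ts11 arrays above all others for Mnt, and both WT arrays below all others for Mxd1, while the 10 arrays for Max lie close together.

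Myc was highest in Ts15, the line with 3 copies of the chromosome that carries it. Its probe lies at chr15:61821417-61821476 (mm9, plus strand) across the end of the coding sequence, and is shown because every Myc value here is read through it. The stop codon is in capitals.
Myc: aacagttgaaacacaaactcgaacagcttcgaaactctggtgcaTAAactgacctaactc
Myc had levels of 2.85 and 2.79 for Ts15, against 2.00 and 2.19 for WT. The other lines gave 1.66 and 1.77 for Ts6, 1.90 and 1.35 for Ts8, and 1.97 and 1.88 for Ts11. Both Ts15 arrays lay above all 8 others, and all 6 arrays of the other lines lay below both WT arrays. The 2 spots of the probe differed by at most 0.18 on any array, less than the gap between Ts15 and the rest.

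Against WT, Myc was 0.72 ± 0.18 higher in Ts15 (SE, 1.65-fold, limma adjusted p = 0.052), which missed the threshold. It was -0.38 ± 0.18 in Ts6, -0.475 ± 0.18 in Ts8 and -0.17 ± 0.18 in Ts11 (limma adjusted p = 0.240, 0.156 and 0.605). Between lines the difference passed. Myc was higher in Ts15 than in Ts6 by 1.10 ± 0.18 (limma adjusted p = 0.0065), than in Ts8 by 1.20 ± 0.18 (adjusted p = 0.0064) and than in Ts11 by 0.89 ± 0.18 (adjusted p = 0.0169). In order of the group means Myc ran Ts8, Ts6, Ts11, WT and Ts15, and of neighbours in that order no pair was called. The call against Ts8 was kept in all 19 alternatives run, that against Ts6 was lost without Ts6 replicate 1 (adjusted p = 0.0507), and that against Ts11 was lost without any single array of Ts11 or Ts15 (adjusted p = 0.0573 to 0.0827).

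The marker lists moved along with Ts15. Of 20 tested genes of differentiating cells, 7 rose in Ts15 against WT and 0 fell (2.58% of all genes rose and 4.86% fell). Sox17 (2.48), Foxa2 (1.95), Sox7 (1.52) and Gata6 (1.51), all endoderm factors, changed most. Of the 20, 13 read above 0, and at an unadjusted p under 0.05 (limma) 8 rose and 2 fell. Among the defining markers Gata4, Gata6, Sox17, Foxa2 and Cdx2 averaged higher in Ts15 than in WT. T, Sox1 and Pax6 averaged lower (Pax6 -3.70 against -2.69). The summed level of the 20 genes was 5.19 to 5.45 in Ts15, against 4.62 to 4.91 in WT, and 4.30 to 4.78 over the other lines. The 29 feeder genes summed to 6.65 and 6.82 for Ts15, against 6.55 and 6.56 for WT, and 1 of them rose (Acta2, 0.65). In the comparisons between lines, where Myc was called, the lists lay further apart. Genes of differentiating cells rose in Ts15 in 12 of 20 cases against Ts6, 12 against Ts8 (with 2 lower) and 8 against Ts11. Their medians were 1.02, 1.22 and 0.75, and 17, 14 and 17 of the 20 read above 0. Feeder genes rose in 7 of 29 cases against Ts6, 3 against Ts8 and 2 against Ts11, with medians of 0.60, 0.50 and 0.34, and 28, 26 and 27 of the 29 read above 0. Over all genes, 7.85%, 5.57% and 5.77% rose in these pairs. None of the 16 pluripotency factors was called in Ts15 against WT, where 2 had an unadjusted p under 0.05 (limma). Between lines 1 was lower in Ts15 than in Ts6, 3 were higher than in Ts8, and 3 were higher and 2 lower than in Ts11. The shares of all genes would give 2.91, 2.75 and 2.41 calls. The part of these cells in the Myc level, and in the differences of other members between Ts15 and the lines, was not tested.

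Myc was also set against all arrays with 2 copies of chromosome 15, by an exact two-sided permutation test over the 45 splits of 2 arrays against 8, whose smallest possible p is 0.0222. The test counts each array as independent, although the arrays come 2 to a line, and over 5 whole groups the smallest p would be 0.2, so these p-values do not carry over from arrays to lines. Myc averaged 2.82 ± 0.04 in Ts15 and 1.84 ± 0.25 on the other 8 arrays (SD, n = 2 and 8), a difference of 0.98 or 1.97-fold (exact p = 0.0222, 0.0444 adjusted over the 4 dosage tests). A rise in proportion to copy number would be 0.585 on this scale (log2 of 3 over 2). Over the 1105 genes of chromosome 15 the median difference was 0.25, and 33 of them (2.99%) had a larger difference than Myc.

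**Figure D2:**
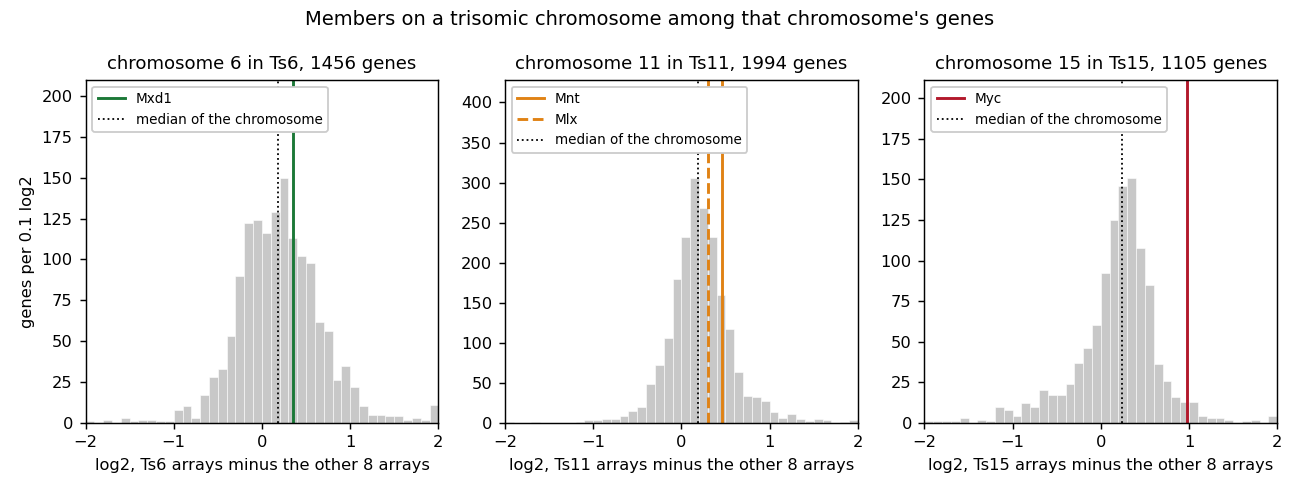
Difference in mean log2 level between the 2 arrays of a trisomic line and the other 8 arrays for all tested genes of its trisomic chromosome (grey bars, genes per 0.1 log2, with genes beyond 2 in the outermost bars), with the network members on that chromosome as coloured lines and the chromosome's median as a dotted line. Myc at 0.98 lies in the upper tail of chromosome 15, whereas Mxd1 (0.35), Mnt (0.46) and Mlx (0.30) lie nearer the middle of their chromosomes.

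The neighbourhood of Myc held 32 other tested genes or transcripts within 2 Mb, a window chosen by position after values had been seen. Pvt1, a long noncoding RNA gene next to Myc, rose in Ts15 by 0.53 ± 0.13 (limma adjusted p = 0.0488), and was 0.45 ± 0.13 in Ts8 (adjusted p = 0.092), -0.25 in Ts6 and -0.16 in Ts11. In Ts8, where Pvt1 read above WT, Myc read below it, and neither passed the test. Another transcript of this locus, at 261.1 kb and with the Pvt1 probe inside its span, rose in Ts8 by 0.69 ± 0.13 (limma adjusted p = 0.0393). Gsdmcl2, of the gasdermin C cluster at 1899 kb from Myc, fell in Ts15 by 0.92 (adjusted p = 0.0443). In Ts15, 4 of the 32 rose and 1 fell, where the shares of all genes would give 0.826 and 1.56. All 32 lie on chromosome 15, whose 1105 genes had a median difference of 0.25 between Ts15 and the other 8 arrays. The shares of all genes do not allow for that, and no share over chromosome 15 is given here. Of the 4 that rose, 3 lay between 252.6 and 270.1 kb from Myc, around Pvt1, and may be read from 1 locus. In the other lines 2 rose and 2 fell in Ts6, and 1 rose in each of Ts8 and Ts11.

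**Figure D3:**
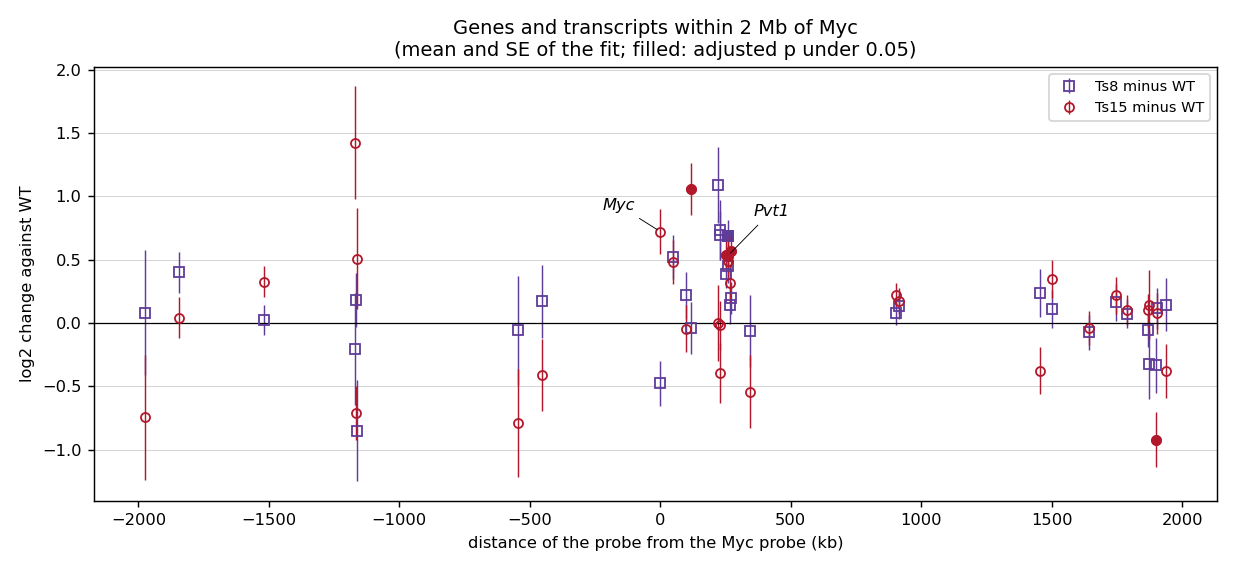
Log2 change against WT, with its SE, for the tested genes and transcripts within 2 Mb of Myc, by the distance of their probe from the Myc probe in kb (squares Ts8, circles Ts15, filled where the adjusted p was under 0.05). Around 260 kb Pvt1 lies above 0 in both lines, and Myc lies above 0 in Ts15 and below 0 in Ts8.

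Mycn, on chromosome 12 and diploid in all groups, had levels of 2.57 and 2.56 for Ts8, 2.32 and 1.98 for Ts6, 2.05 and 2.19 for Ts11, 2.40 and 2.30 for Ts15, and 2.41 and 2.10 for WT. Both Ts8 arrays were the highest of the 10, and every other line overlapped WT. The change against WT was 0.31 ± 0.15 in Ts8 (limma adjusted p = 0.252), and those of the other lines were between -0.13 and 0.09. Ts8 thus held the highest Mycn mean and the lowest Myc mean, although neither was called against WT and the F test did not call Mycn (limma adjusted p = 0.178).

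The third Myc gene, Mycl, was lower in the lines. It is no member of the set but was in a list of paralogues and Mondo factors, and was above background on all arrays. Mycl had -1.57 and -1.57 for Ts6, -1.07 and -1.13 for Ts8, -1.60 and -1.38 for Ts11, and -1.69 and -1.40 for Ts15, against -0.66 and -0.65 for WT, with every trisomic array below both WT arrays. It fell by 0.92 ± 0.13 in Ts6 (limma adjusted p = 0.0058), by 0.84 in Ts11 (adjusted p = 0.0114) and by 0.90 in Ts15 (adjusted p = 0.0094), and was -0.44 in Ts8 (adjusted p = 0.0948). Of the other 4 genes of that list, Usf1, an E-box factor outside the network, fell in Ts11 by 0.64 (adjusted p = 0.0498), and Mlxip, Mlxipl and Usf2 were not called in any line.

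Max, the shared partner at the centre of the network, stayed within a narrow span. Its levels were 2.29 and 2.25 for Ts6, 2.22 and 2.20 for Ts8, 2.27 and 2.20 for Ts11, 2.42 and 2.25 for Ts15, and 2.24 and 2.25 for WT. Over the 10 arrays it spanned 0.23, and 99.1% of tested genes spanned more (median 0.83), whereas Myc spanned 1.503, and 16.9% of genes spanned more. The changes of Max against WT were between -0.04 and 0.09, each with an SE of 0.10, and the F test gave an adjusted p of 0.771 (limma).

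Mxd1 was the member that differed from WT most often. The gene lies on chromosome 6 and encodes a repressor that takes Max away from Myc as cells leave the cycle. It had levels of -0.02 and -0.02 for Ts6, -0.24 and -0.49 for Ts8, -0.07 and -0.24 for Ts11, and -0.29 and -0.32 for Ts15, against -0.65 and -0.64 for WT. All 8 trisomic arrays lay above both WT arrays.

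Mxd1 rose by 0.63 ± 0.12 in Ts6 (1.55-fold, limma adjusted p = 0.0173) and by 0.49 ± 0.12 in Ts11 (1.41-fold, adjusted p = 0.0441), and was 0.29 in Ts8 and 0.34 in Ts15 (adjusted p = 0.185 and 0.124). Over the mean of the 4 lines it rose by 0.44 ± 0.09 (adjusted p = 0.0471), and that call was lost without any single array of WT, Ts6, Ts11 or Ts15. The calls in Ts6 and Ts11 rest on few arrays: leaving out any array of WT or Ts6 took the Ts6 call to an adjusted p of 0.0696 to 0.108, and the Ts11 call was lost in 16 of 21 alternatives. With passage as a covariate the changes were 0.57 in Ts6 (adjusted p = 0.114) and 0.38 in Ts11 (adjusted p = 0.382).

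Genes of the marker lists changed in these lines too. The feeder genes summed to 6.12 to 6.38 in Ts6, 6.24 to 6.43 in Ts8 and 6.31 to 6.55 in Ts11, against 6.55 to 6.56 in WT. In Ts6 2 of 29 fell (Col5a2 and Pdgfra), where the share of all genes would give 1.33. Their median changes were -0.40 in Ts6, -0.25 in Ts8 and -0.20 in Ts11, and 2, 4 and 7 of the 29 read above 0. At an unadjusted p under 0.05 (limma) 10, 6 and 4 fell, and 1 rose in Ts8. Of 20 genes of differentiating cells, 1 rose and 5 fell in Ts6 (4.59% of all genes fell), 2 fell in Ts8 (1.455%) and none was called in Ts11, where 9 had an unadjusted p under 0.05 (limma). Of 16 pluripotency factors, Dppa3, a germ cell and naive-state gene, rose by 3.05 in Ts6 and by 3.22 in Ts11, Tfcp2l1 fell in Ts8, and Dnmt3b and Lin28a fell in Ts11. Their part in the Mxd1 level was not tested.

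A dimmer probe of Mxd1, 1863 bases away, read 0.57 ± 0.22 in Ts6 and 0.30 ± 0.22 in Ts11, in the same direction but without a call (limma adjusted p = 0.168 and 0.451). Set against the 8 arrays with 2 copies of chromosome 6, Mxd1 in Ts6 averaged -0.02 against -0.37, a difference of 0.35 (exact p = 0.0444, 0.0593 adjusted). This was smaller than its difference from WT alone, and the other lines also lay above WT. Of the 1456 genes of chromosome 6, 35.0% had a larger difference than Mxd1, and their median was 0.18.

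Mnt, on chromosome 11, is the Max-binding repressor most widely present in dividing cells. Its levels were 1.47 and 1.63 for Ts11, 1.19 and 1.21 for Ts6, 0.90 and 1.07 for Ts8, 0.99 and 1.02 for Ts15, and 1.27 and 1.07 for WT. Both Ts11 arrays lay above the other 8. Against WT the change in Ts11 was 0.38 ± 0.12 (limma adjusted p = 0.0965). Mnt was higher in Ts11 than in Ts8 by 0.56 ± 0.12 (adjusted p = 0.0303), and lower in Ts15 than in Ts11 by 0.55 ± 0.12 (adjusted p = 0.0232). Of the alternatives run, 12 of 20 lost the Ts8 call and 4 of 19 the Ts15 call, with no change of direction.

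Against the 8 arrays with 2 copies, Mnt averaged 1.55 ± 0.12 in Ts11 and 1.09 ± 0.12 on the others (SD, n = 2 and 8), a difference of 0.46 or 1.38-fold (exact p = 0.0222, 0.0444 adjusted). The median over the 1994 genes of chromosome 11 was 0.19, and 19.0% of them had a larger difference. Mlx lies on the same chromosome, and its probe, at chr11:100952426-100952485 (mm9, plus strand), also crosses the end of the coding sequence, with the stop codon in capitals, so Myc and Mlx are both read at their last codons.
Mlx: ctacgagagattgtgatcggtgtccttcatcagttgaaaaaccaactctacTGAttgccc
Mlx had 1.65 and 1.34 for Ts11, 1.30 and 1.33 for Ts6, 1.10 and 0.66 for Ts8, 1.32 and 1.19 for Ts15, and 1.34 and 1.28 for WT. Only 1 of the 2 Ts11 arrays stood above the rest, and the dosage difference of 0.30 was not called (exact p = 0.222, unchanged by adjustment). Ts8 held the lowest Mlx arrays, at -0.43 ± 0.17 against WT (limma adjusted p = 0.165).

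Mxd4, on chromosome 5, is a repressor of the Mxd family that is typical of cells leaving proliferation. It had -0.11 and -0.01 for Ts15, -0.12 and -0.28 for Ts6, -0.51 and -0.85 for Ts8, -1.06 and -0.71 for Ts11, and -0.49 and -0.57 for WT. Ts15 and Ts6 lay above both WT arrays and Ts11 below both. No change against WT was called (0.47 in Ts15, 0.33 in Ts6, -0.14 in Ts8 and -0.35 in Ts11), but Mxd4 was higher in Ts15 than in Ts11 by 0.83 ± 0.16 (limma adjusted p = 0.0154), higher in Ts15 than in Ts8 by 0.62 (adjusted p = 0.0384) and lower in Ts11 than in Ts6 by 0.68 (adjusted p = 0.0457). These calls come from 1 of 2 probes: a dimmer probe that shares 13 bases with it read -0.07 ± 0.16 for Ts15 minus Ts11 and -0.07 for Ts15 minus Ts8, and was above background on all arrays. Of the alternatives run, 6 of 20 lost the call of Ts15 against Ts11, 13 of 20 that of Ts15 against Ts8 and 18 of 21 that of Ts11 against Ts6.

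Mxd3, on chromosome 13, a repressor that is unusual in the family for its presence in S phase, had 0.51 and 0.59 for Ts6, 0.43 and 0.03 for Ts8, 0.57 and 0.37 for Ts11, 0.52 and 0.45 for Ts15, and 0.41 and 0.73 for WT. Every line overlapped WT and no change was called (limma F test adjusted p = 0.407).

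Mga, on chromosome 2, was lowest in Ts15. It had -0.76 and -0.92 for Ts15, -0.17 and -0.09 for Ts6, -0.34 and 0.13 for Ts8, -0.48 and -0.32 for Ts11, and -0.71 and -0.39 for WT, so that both Ts15 arrays lay below the other 8. Mga was lower in Ts15 than in Ts6 by 0.71 ± 0.18 (limma adjusted p = 0.0334) and than in Ts8 by 0.74 ± 0.18 (adjusted p = 0.032). Against WT it read -0.29 in Ts15, 0.43 in Ts6, 0.45 in Ts8 and 0.16 in Ts11, and none was called. The call against Ts6 was lost in 6 of 19 alternatives and that against Ts8 in 7, among them each one that left out an array of Ts15.

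**Figure D4:**
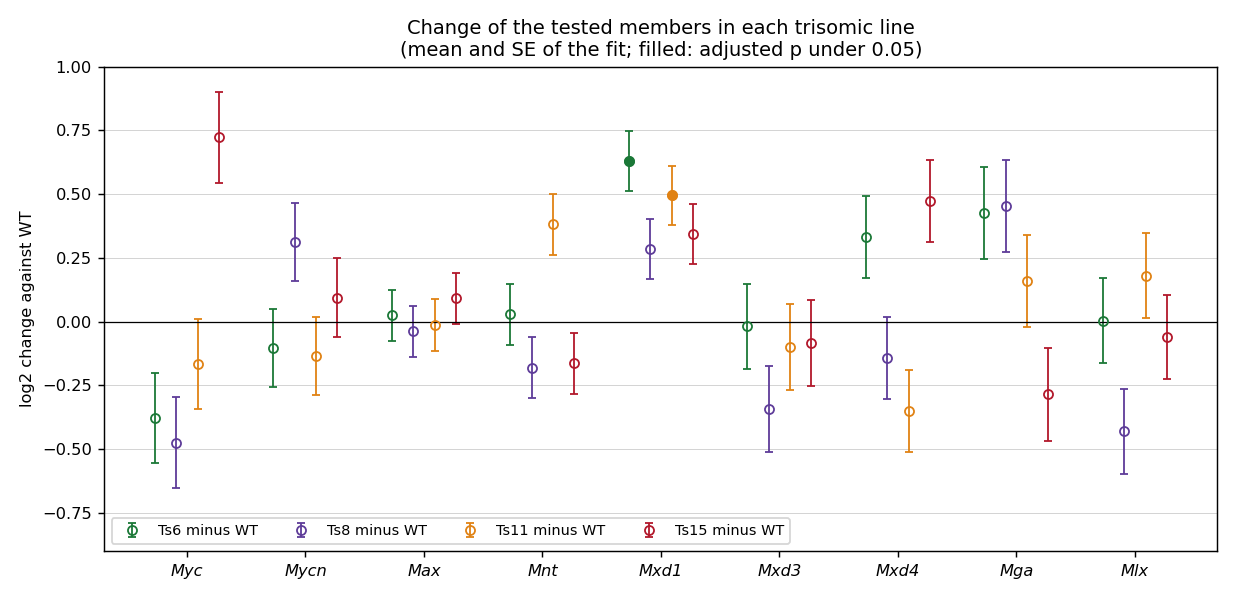
Log2 change against WT, with the SE of the fit, for the 9 tested members in Ts6, Ts8, Ts11 and Ts15 (filled where the adjusted p was under 0.05). Mxd1 lies above 0 in all 4 lines and is filled in Ts6 and Ts11, and Myc lies above 0 in Ts15 and below 0 in the other lines.

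Between lines, members were called in all pairs but 1. No member was called between Ts8 and Ts6 (13.7% of all genes were, and 4 members had an unadjusted p under 0.05 in limma), 1 of 9 between Ts11 and Ts6 (7.27%), 2 between Ts15 and Ts6 (18.2%), 1 between Ts11 and Ts8 (7.82%), 3 between Ts15 and Ts8 (17.2%) and 3 between Ts15 and Ts11 (15%). At the shares of all genes, 9 genes would hold 1.23, 0.655, 1.64, 0.704, 1.55 and 1.35 calls in these 6 pairs, in the same order.

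The known targets of Myc were described from 3 lists, and none of them held a call in Ts15. In that line, where Myc was highest, 0 of 28 genes of the nucleolus and ribosome assembly, 0 of 21 of nucleotide, polyamine and one-carbon synthesis and 0 of 29 of growth, cell cycle and glycolysis were called in either direction, while 2.58% of all genes rose and 4.86% fell. At an unadjusted p under 0.05 there were 2, 4 and 5 (limma). Their median changes were 0.03, 0.06 and 0.04, beside -0.01 for all genes. Odc1, the polyamine enzyme long used as a Myc target, read 0.28 ± 0.13 (adjusted p = 0.231), and Ncl, which encodes nucleolin, -0.10 ± 0.14 (adjusted p = 0.708); both were picked as textbook targets after values were seen.

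In the other lines, the lists held 4 calls, all lower and no more than the share of all genes. Of their 77 different genes 3 fell in Ts6, 0 in Ts8 and 1 in Ts11, where the shares of all genes would give 3.54, 1.12 and 3.15. Pes1, a factor of large ribosomal subunit assembly, fell in Ts6 by 0.47 (limma adjusted p = 0.0401), and Nop56, of the box C/D snoRNP, fell in Ts11 by 0.52 (adjusted p = 0.0469). The cyclins Ccnd1 and Ccnd2 fell in Ts6 by 0.78 and 1.72 (adjusted p = 0.0367 and 0.0287). The medians of the 3 lists in Ts6, Ts8 and Ts11 lay between -0.115 and -0.01, with all genes between -0.01 and 0.04. In Ts15 set against the other lines, 5 of the 77 were higher and 1 lower (E2f1, -0.60) against Ts6, 6 higher and 1 lower (Prps2, -0.55) against Ts8, and 3 higher against Ts11. The shares of all genes would give 6.05, 4.29 and 4.44 higher and 7.98, 8.94 and 7.15 lower. The counts of higher genes thus lay near the background, and those of lower genes below it. The medians of the 3 lists were 0.067, 0.12 and 0.10 against Ts6, beside 0.0005 for all genes. Against Ts8 they were 0.17, 0.19 and 0.13 (all genes -0.03), and against Ts11 0.20, 0.11 and 0.17 (all genes 0.0004). The marker lists moved in the same pairs as given above, and their part in these medians was not tested. The nucleolar list held 3, 3 and 2 of the higher calls. Those of it called in all 3 pairs, picked after values were seen, were Bop1 (0.49, 0.70 and 0.56), an assembly factor of the large subunit that itself lies on chromosome 15, and Ppan (0.34, 0.33 and 0.35), on chromosome 9.

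Of 12 genes that Myc is known to repress, 1 was called in each of 3 lines, about the number that the shares of all genes would give (1.08 in Ts6, 0.975 in Ts11 and 0.893 in Ts15). Id2 fell in Ts6 by 0.85 (limma adjusted p = 0.0484), Foxo3 rose in Ts11 by 0.81 (adjusted p = 0.0292) and Gata6 rose in Ts15 by 1.51 (adjusted p = 0.0088). Gata6 is also an endoderm factor and stands in the list of differentiating cells.

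Of 22 cofactors of Myc, 2 were called in Ts8 and 1 in Ts11, all lower, where the shares of all genes would give 0.32 and 0.901 lower. Pim1, a kinase that acts with Myc, fell in Ts8 by 0.56 (limma adjusted p = 0.0435) and in Ts11 by 0.64 (adjusted p = 0.0174), Kat2a, an acetyltransferase that Myc recruits, fell in Ts8 by 0.47 (adjusted p = 0.0496), and none was called in Ts6 or Ts15, where 3 and 0 had an unadjusted p under 0.05. Of 13 genes upstream of Myc, 1 was called in each of Ts6, Ts8 and Ts15, where the shares of all genes would give 1.17, 0.459 and 0.967. Axin2, a Wnt target and feedback inhibitor, fell in Ts6 by 0.93 (adjusted p = 0.0086), Il6st, the shared receptor subunit of LIF signalling, fell in Ts8 by 0.50 (adjusted p = 0.0375), and Pvt1 rose in Ts15 as above. Of 15 genes of the Mxd and Mnt corepressor complex, 2 were called in Ts11, where the share of all genes would give 1.22, and none in Ts6, Ts8 or Ts15, where 2, 5 and 0 had an unadjusted p under 0.05 (limma). In Ts11 Arid4b rose by 0.78 (adjusted p = 0.0441) and Suds3 fell by 0.60 (adjusted p = 0.0271). None of the 4 tested targets of Mlx and MondoA was called, although 2 had an unadjusted p under 0.05 in Ts6 and 2 in Ts8 (limma).

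**Figure D5:**
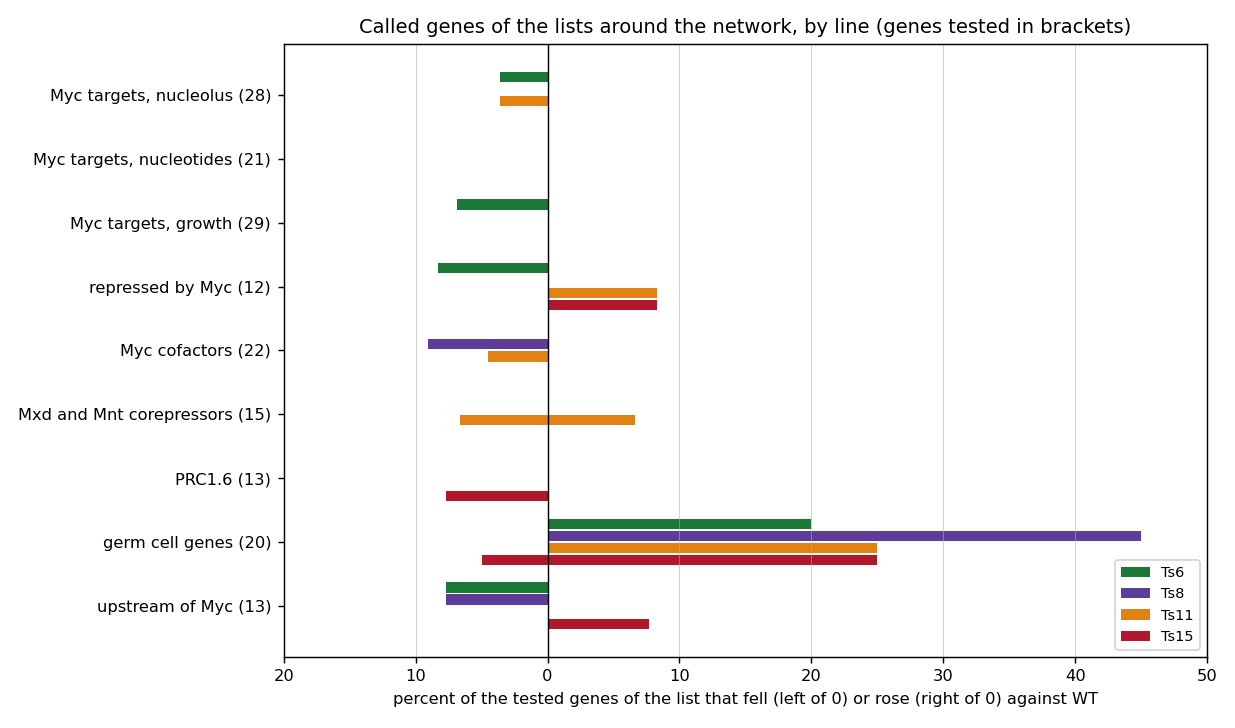
Percent of the tested genes of 9 lists that fell (left of 0) or rose (right of 0) against WT in Ts6, Ts8, Ts11 and Ts15, with the number of genes tested in brackets. Of the lists drawn, which leave out the marker lists, the paralogues and the targets of Mlx, the germ cell genes have the longest bar to the right in each line, with 4 of 20 up for Ts6, 9 for Ts8, 5 for Ts11 and 5 for Ts15, while the 3 lists of Myc targets have none to the right of 0.

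Among germ cell genes listed as repressed through PRC1.6 with Mga and Max, more rose than fell in each line. Each read above background on every array, WT included, though which cells of the bulk sample gave that signal was not tested. WT levels ran from -5.535 and -5.64 (Tdrd1) to 2.71 and 2.32 (Stra8). Of 20 genes, 4 rose in Ts6, 9 in Ts8 and 5 each in Ts11 and Ts15, and 1 fell in Ts15, beside rises in 4.44%, 2.07%, 4.03% and 2.58% of all genes in the same order. The median changes were 0.37, 0.78, 0.48 and 0.32. Smc1b, a meiotic cohesin subunit on chromosome 15, which is trisomic in Ts15, was called in all 4 lines. It had -0.41 and -0.20 for Ts6, -1.03 and -0.50 for Ts8, -0.36 and -0.19 for Ts11, and -0.51 and -1.004 for Ts15, against -2.23 and -2.26 for WT. It rose by 1.94 in Ts6 (limma adjusted p = 0.0024), by 1.48 in Ts8 (adjusted p = 0.0247), by 1.97 in Ts11 (adjusted p = 0.0037) and by 1.49 in Ts15 (adjusted p = 0.0096), and every trisomic array lay above both WT arrays.

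Asz1, of the piRNA pathway, ran in different directions. It rose in Ts6 by 2.35 (limma adjusted p = 0.000643), where its chromosome is trisomic, and in Ts11 by 1.72 (adjusted p = 0.0036), read -0.475 in Ts8 (adjusted p = 0.170) and fell in Ts15 by 1.58 (adjusted p = 0.0046). Tdrkh (1.69) and Tdrd1 (1.30), both Tudor proteins of the piRNA pathway, were among the 9 that rose in Ts8. They also rose in Ts15, by 1.12 and 0.52 (limma adjusted p = 0.0288 and 0.0447). Stk31, on chromosome 6, rose in Ts6 by 1.39. Meioc, on chromosome 11, rose in Ts11 by 1.39 and in Ts8 by 1.27. Mov10l1, on chromosome 15, rose in Ts15 by 1.26. Also called were Sycp3 in Ts6 (0.73) and Ts8 (0.77), Sycp1 in Ts11 (1.29), and Tex101 in Ts8 (1.29), Ts11 (1.19) and Ts15 (1.36). These genes moved beside a member, Mga, whose own change against WT was not called in any line. The other 13 genes of PRC1.6 gave 1 call, Ring1, which fell in Ts15 by 0.57 (limma adjusted p = 0.0208). At the shares of all genes, those 13 would hold 0.967 calls for Ts15, near the 1 found. For the remaining lines, which held none, they would hold between 0.459 (Ts8) and 1.17 (Ts6). Mga read above WT in Ts8 (0.45 ± 0.18, limma adjusted p = 0.177), the line with the most germ cell genes called. In Ts15 it read below WT (-0.29 ± 0.18, adjusted p = 0.377). A link between Mga and the germ cell genes was not tested.

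The genes with the profile most like Myc over the 10 arrays, by the mean absolute difference between gene-centred log2 values among 15334 named genes above background on all arrays, were Mylk2 (0.08), Fhdc1 (0.11), Shf (0.13) and Clstn3 (0.13), where the median gene differed by 0.39. None of them lies on chromosome 15. Those most like Mycn were Gpc3 (0.04), Eif4e (0.06), Naf1 (0.06) and Syk (0.07), with a median of 0.25. These values describe likeness over samples that share their group means and are no test.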

How the data were processed

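Total RNA of 10 samples was amplified, labelled with Cy3 and hybridised to single-colour Agilent mouse arrays with probes placed on mm9, per the labels' protocols and the file headers. The deposited intensity values (processed signals) came from Agilent Feature Extraction 10.7.3.1, with spatial detrending on, background subtraction off and surrogate values for dim spots, per the file headers. The authors' deposited series table holds log2 values that follow the scanner's (correlation 0.998 to 1.000 across probes) with 1 SD of 3.81 in every column and medians of -3.42 to -3.32; its centring is unknown, and it served as an alternative only. No spot was saturated.

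Here, levels were log2 of the processed intensity minus the array's 75th percentile, with replicate spots averaged. Spots marked non-uniform or outlying did not enter these averages, and probes with no unmarked spot on some array (176) were left out. So were probes that failed to reach the scanner's call of well above background on both arrays of some group. This kept 43043 of 55681 probes. Names were updated by accession (26756 of 28390 probes matched RefSeq, GRCm38.p6), and the probe with the highest mean stood for its gene. The linear models were fitted in R 4.3.3 by limma 3.58.1 (a mean for each group, 5 residual and 2.67 prior degrees of freedom, two-sided, Benjamini-Hochberg adjustment within each comparison, or over genes for the F test), which was tested on simulated data first. Dosage was tested with exact permutations of arrays (Python 3.11.15). Sequences come from the scanner files and RefSeq. The members, the 14 gene lists and the rule by which genes are named were chosen with earlier results of these data known. The rule takes all members, all paralogues, and per list and line up to 4 called genes with the largest change. The genes of differentiating cells called in Ts6 and Ts8 are given as counts only. Genes picked after values were seen are marked. Same-numbered samples of different groups had correlated deviations of -0.10 to 0.39, not all above 0.1, so numbers were not taken as pairs. Alternatives changed the normalization, background correction, dim filter, probe choice, samples, slide, passage term and replicate block, and left out each array in turn.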

Additional observations from a re-analysis of the deposited data

Results flagged for a closer look

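The following differences between trisomic lines in their change from WT passed the test of the difference itself (limma, adjusted p under 0.05), which is the same as the difference between the lines. Myc changed more in Ts15 than in Ts6 by 1.10, than in Ts8 by 1.20 (1.197) and than in Ts11 by 0.89 (0.8881), with both Ts15 arrays above all others. Mnt changed more in Ts11 than in Ts8 by 0.56 (0.5629), and less in Ts15 than in Ts11, by -0.55 (-0.5453). Mxd4 changed less in Ts11 than in Ts6, by -0.68 (-0.684), and more in Ts15 than in Ts8 by 0.62 (0.6179) and than in Ts11 by 0.83 (0.8256), on the brighter of its 2 probes only. Mga changed less in Ts15 than in Ts6, by -0.71 (-0.711), and than in Ts8, by -0.74 (-0.7377). The Ts15 arrays were on a slide of their own, so the differences that involve Ts15 cannot be told apart from one between slides. The differences of Ts11 from Ts8 in Mnt and from Ts6 in Mxd4 are between arrays of slide 1.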

How the results depend on the processing

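The recomputed member changes were those of each line against WT and the called differences between pairs of lines, 914 in all. Of these, 789 kept their direction and their side of the threshold, 91 lost the call, 4 gained one and 30 turned direction. Pair differences without a call were not among them. All but 2 of the changes that turned were not called, and most lay near 0. Leaving out 1 array gave ranges across 0 in Ts6 for Mycn (-0.27 to 0.0615), Mnt (-0.072 to 0.128), Mxd3 (-0.175 to 0.137) and Mlx (-0.0274 to 0.0333), in Ts8 for Mxd4 (-0.314 to 0.0252), in Ts11 for Mycn (-0.293 to 0.025), Max (-0.048 to 0.0201), Mxd3 (-0.257 to 0.055) and Mga (-0.0031 to 0.318), and in Ts15 for Mycn (-0.0653 to 0.253), Mxd3 (-0.24 to 0.0712) and Mlx (-0.125 to 0.0037). With passage as a covariate, Ts6 gave -0.028 for Max and -0.12 for Mlx, Ts11 -0.0333 for Mlx and Ts15 -0.11 for Mycn. Normexp with quantile normalization gave -0.0036 for Max and -0.016 for Mlx in Ts6 and -0.0263 for Mycn in Ts15. Quantile normalization alone gave -0.0159 for Mlx in Ts6, and the authors' deposited series table -0.0201 for Mlx in Ts6 and 0.0572 for Max in Ts11. For Mxd4 the mean of its probes gave 0.031 in Ts8, and the dimmer probe gave 0.206 in Ts8, 0.208 in Ts11, and -0.0653 and -0.0675 for Ts15 minus Ts8 and minus Ts11, where the brighter probe had calls. The cause of these shifts was not tested.

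The counts of called members were small and moved easily. In Ts6 the count was 0 with passage as a covariate. In Ts11 it was 0 under normexp, without the dim filter, with the mean of probes, with only the 2 groups fitted, with only the slide of WT and with passage, and 2 in the authors' deposited series table. The mean of the 4 lines gave 0 under normexp, without the dim filter, with the mean of probes and with passage. Leaving out 1 array gave 0 to 1 called members in each of the 5 comparisons with WT; in Ts8 and Ts15 the 1 came without a Ts8 array, and in Ts15 it was Myc (adjusted p = 0.02). With the replicate block the counts were 1 in Ts6, 0 in Ts8, 1 in Ts11, 0 in Ts15 and 1 in the mean; among pairs of lines it lost 2 Mxd4 calls (adjusted p = 0.061 and 0.0513). Over all genes, passage as a covariate left 48 calls in Ts11, 449 in Ts15 and 2 in the mean of the lines, and counts ran over 797 to 2730 in Ts6, 0 to 1766 in Ts8, 48 to 2776 in Ts11, 449 to 2142 in Ts15 and 2 to 1304 in the mean. Without 1 array the dosage difference was 0.906 to 1.03 for Myc in Ts15 and 0.378 to 0.544 for Mnt in Ts11, with adjusted exact p of 0.0556 to 0.148, as fewer splits exist. On the slide of WT alone Mnt gave 0.433 (adjusted p = 0.107). The 2 arrays per group limit all of these tests, and Mxi1 is limited by its signal over background.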
